A study of Homo sapiens with 414 samples.

Results

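Single cells of the human embryonic stem cell lines H1 and H9 were compared gene by gene. The comparison took the 92 H1 cells and 91 H9 cells that the labels place at 24 libraries per lane, which are 183 of the 414 libraries of the series. Both lines were labelled as undifferentiated and grown in E8 medium on Matrigel, H1 at passages 20 to 30 and H9 at passages 25 to 35. Cells were caught on a Fluidigm C1 microfluidic chip, SMARTer chemistry turned their polyadenylated RNA into full-length cDNA, and Nextera XT libraries of it were read for 51 bases from one end. The same cDNA was also sequenced at 96 libraries per lane, and 48 bulk libraries of H1 at passage 16, made by another chemistry, gave a further view of H1.

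Each line came from 1 chip, so the line, its passages, its chip and its sequencing run cannot be told apart, and the values describe these 2 sets of cells. A line counts as 1 sample here, which is why no p-value is given and differences are read by size. Intervals on shares of cells are exact Clopper-Pearson 95% intervals over the cells of a chip. Intervals on levels are exact Poisson 95% intervals on the summed reads, which cover counting error only and are too narrow for amplified reads.

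The level of a gene averaged over cells can differ between lines in more than one way: more cells may carry its RNA, or the cells that carry it may hold more. Embryonic stem cells keep their undifferentiated state through the transcription factors OCT4 (gene POU5F1), SOX2 and NANOG. Established lines are known to differ in some imprinted genes, which are read from the copy of one parent, and in genes silenced by DNA methylation during derivation or culture. An average over a whole culture cannot separate a gene that is high in few cells from a gene that is low in every cell. Counts per cell can help to, although a cell without reads may still hold the RNA.

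To make cells of unlike depth comparable, each was thinned at random to 1000000 reads on human genes, so a count in a cell is also its level in CPM (counts per 1000000). As deposited, H1 cells held 1136295 to 8096756 counts and H9 cells 1568326 to 7758948, so no cell was lost. Of the autosomal genes, 8449 reached a mean of 10 CPM in at least one line and were compared. The quantities taken per gene were the mean level over all cells of a line, the share of cells with at least 1 read, the mean level among those cells, and the cell-to-cell spread. The mean is the product of the share and the level among cells with reads, so the log2 ratio of means is the sum of the log2 ratios of those parts.

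Some libraries stood apart from the rest. By spike-in RNA above 10% of counts, or mitochondrially encoded RNA below 1% or above 20%, these were 5 H1 and 2 H9 cells. A limit of 75000 CPM in ribosomal protein genes, which was not planned, lay just above the highest H1 library at 74851 CPM. By it a further 7 H9 libraries and 0 H1 libraries stood apart. These H9 libraries, numbers 88 and 91 to 96, held 76714 to 115539 CPM in those genes, against at most 61407 CPM in the other H9 libraries. Numbers 88, 94, 95 and 96 among them also resembled each other, with correlations over genes of 0.659 to 0.861, against at most 0.694 for the other pairs of H9 libraries and 0.696 in H1, so the ranges overlapped. Some results are also given without these libraries, which leaves 87 H1 and 82 H9 cells. Thinned H1 cells showed a median of 10324 genes and H9 cells 9881, and the number of genes fell with the share of spike-in RNA in both lines (rank correlation -0.883 over H1 cells and -0.777 over H9 cells, all sharing the same thinned depth).

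The cells of both chips carried the marks of undifferentiated stem cells. POU5F1 was read in every cell, with a lowest cell at 74 CPM in either line and medians of 160.5 CPM in H1 and 156.0 CPM in H9. Its means were 165.8 and 166.2 CPM. NANOG gave a log2 ratio of -0.07 and SOX2 of -0.01, again with reads in every cell. All 10 undifferentiated markers reached the level for comparison and 0 of them were 2-fold apart, against 3.05% of all compared genes. At that rate 10 genes of any kind would mostly give 0, so the count does not set the markers apart. DNMT3B, a DNA methyltransferase, and TDGF1, a Nodal co-receptor, stood at log2 ratios of 0.54 each after SALL4, a zinc finger factor, at 0.74. Of the markers of mesendoderm, endoderm, neural ectoderm, and trophoblast and amnion, 0 reached 10 CPM in either line. Their summed levels had medians of 0 to 2 CPM per cell, and the highest cell of each list and line lay between 1 and 63 CPM. Among 10 fibroblast markers, COL1A2 and THY1 reached 10 CPM, with log2 ratios of 0.25 and -0.23. Summed over the fibroblast markers, the medians were 195.5 CPM per H1 cell and 196 CPM per H9 cell.

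A small group of genes was read in most cells of one line and in far fewer of the other, from none to 38 cells. At a limit of 50 percentage points, the share of cells was larger in H1 for 12 genes, 0.142% of those compared, and larger in H9 for 3 genes, 0.0355%. All 15 stayed past that limit without the libraries that stood apart. A limit of 20 points gave 160 genes in H1 (1.89%) and 32 in H9 (0.379%). These counts stand beside the larger number of genes read per H1 cell (median 10324 against 9881), whose part in them was not tested. The genes nearest to the 50-point limit were HTR7 at 50.6 points and NFIB, outside it, at 46.3 in H1, and H2AFY2 at 58.5 and LOXL3, outside it, at 46.4 in H9. The members are named by these shares, which are therefore a description.

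**Figure D1:**
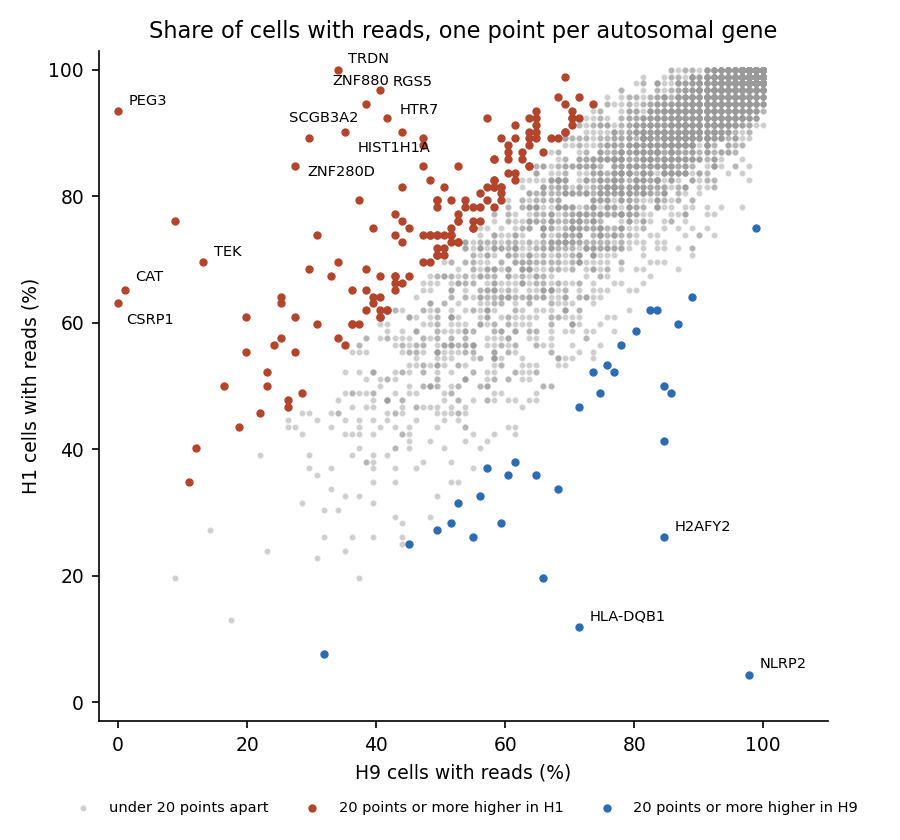
Share of cells with at least 1 read in H9 (horizontal, %) and H1 (vertical, %), one point for each of 8449 autosomal genes, with cells thinned to 1000000 reads. Most genes lie near the diagonal, the 160 genes at least 20 points higher in H1 lie above it, the 32 higher in H9 below it, and the genes named are among those at least 50 points apart.

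PEG3 stood at one end of this group. It is a paternally expressed imprinted gene that codes for a zinc finger protein. It was read in 86 of 92 H1 cells (93.5%, interval 86.3 to 97.6), with levels from 0 to 510 CPM and a median of 60, and in 0 of 91 H9 cells, for which the exact interval reaches up to 3.97%. Without thinning the counts were 91 H1 cells and again 0 H9 cells. Its mean of 91.4 CPM in H1 was at least 2772-fold that in H9, taking 3 reads over the H9 cells as the floor, and the bulk H1 libraries stood at 90.4 ± 6.78 CPM (SD, n = 48). The groups thus overlapped only in the 6 H1 cells without reads.

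CSRP1 and CAT were also near absent from H9. CSRP1, which codes for a LIM-domain protein of the actin cytoskeleton, was read in 58 H1 cells (63.04%, interval 52.3 to 72.9) and 0 H9 cells, with H1 levels from 0 to 89 CPM and a median of 2.0. Its H1 mean of 11.96 CPM was at least 363-fold higher than in H9. CAT, the catalase that breaks down hydrogen peroxide, was read in 60 H1 cells (65.2%, interval 54.6 to 74.9), up to 139 CPM with a median of 5.5, and in 1 H9 cell at 12 CPM. The mean levels of CAT were 21.9 and 0.132 CPM, the latter resting on that single cell. In bulk H1, CSRP1 stood at 15.8 ± 3.24 CPM and CAT at 4.78 ± 1.53 CPM (SD, n = 48). Both genes were thus at 0 in part of the H1 cells as well, and in more of them than PEG3, which was not read in 6.

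The next genes were low rather than absent in H9. TRDN, triadin of the calcium-release complex of muscle, was read in all 92 H1 cells, from 3 to 523 CPM with a median of 116.5, and in 31 H9 cells, up to 69 CPM with a median of 0.0. Its log2 ratio of means was 4.95, of which 1.55 came from the share and 3.39 from the level among cells with reads (131 against 12.4 CPM), so most H9 cells lacked reads and those with reads held few. TEK, the endothelial receptor for angiopoietins, was read in 64 and 12 cells, with a log2 ratio of 4.28 that held 2.40 from the share.

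Further H1 genes past the limit had reads in 25 to 38 H9 cells. SCGB3A2, a secretoglobin of the airway, had reads in 82 H1 and 27 H9 cells, and the zinc finger gene ZNF280D in 78 and 25. RGS5, known from pericytes as a brake on G-protein signals, had reads in 89 and 37 cells, with a median of 53.5 CPM in H1 and 0.0 in H9. HTR7, a serotonin receptor, had reads in 85 and 38 cells. HIST1H1A, a linker histone made during S phase, had reads in 83 and 32 cells and a mean of 35.4 and 4.198 CPM, while bulk H1 held it at 0.209 ± 0.278 CPM (SD, n = 48). ZNF880, a zinc finger gene of chromosome 19, was read in 87 H1 and 35 H9 cells, yet its level among cells with reads was lower in H1 (23.01 against 29.3 CPM), so its mean differed by 0.95 on the log2 scale.

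**Figure D2:**
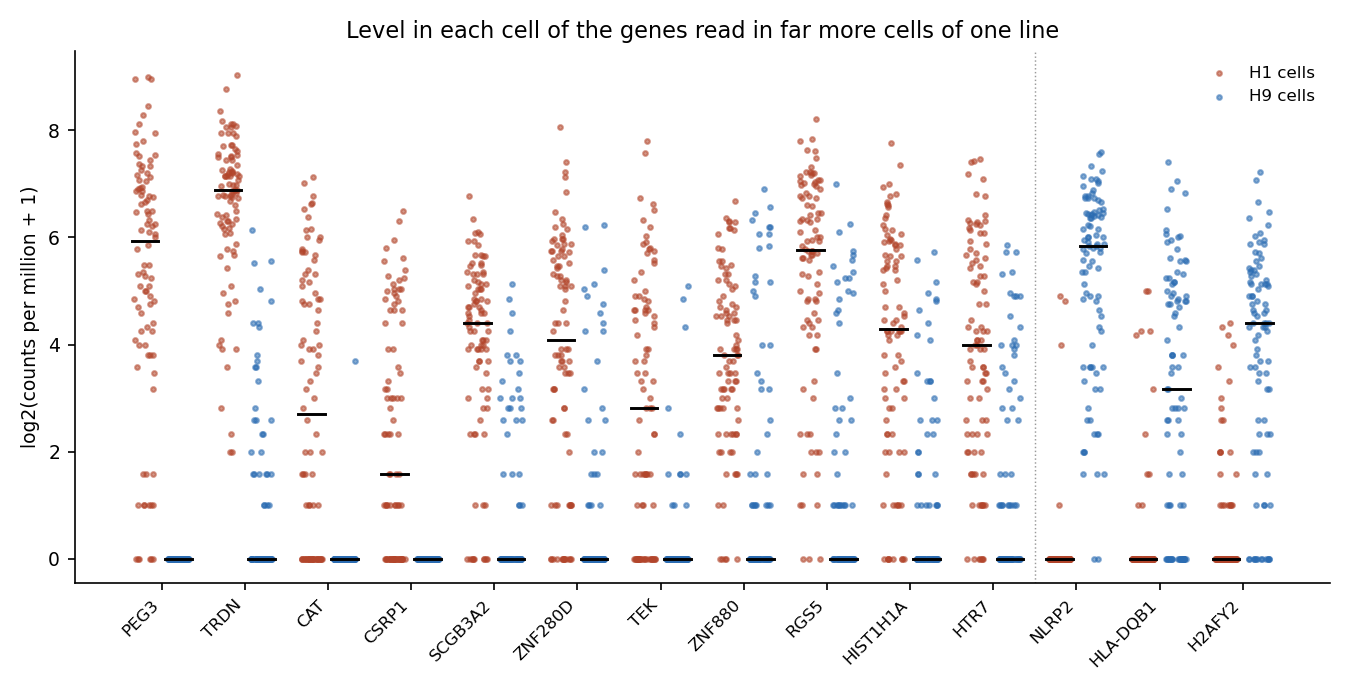
Level in each of 92 H1 and 91 H9 cells, as log2(CPM + 1), of 11 of the 12 genes with a share at least 50 points larger in H1 (left of the dotted line) and the 3 larger in H9 (right). Points are cells, black bars are medians over cells, and points at 0 are cells without reads, which for PEG3 and CSRP1 are all the H9 cells.

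The H9 side held 3 such genes. NLRP2, of the NOD-like receptor family and known as a maternal-effect gene of the egg, was read in 89 of 91 H9 cells (97.8%, interval 92.3 to 99.7), up to 193 CPM with a median of 56, and in 4 of 92 H1 cells (4.35%, interval 1.197 to 10.8), up to 29 CPM. Its mean level was 59.2 CPM in H9 and 0.783 CPM in H1, and bulk H1 stood at 1.19 ± 0.688 CPM (SD, n = 48). HLA-DQB1, a chain of an MHC class II molecule that presents peptides to T cells, was read in 65 H9 cells, up to 169 CPM, and in 11 H1 cells, up to 31 CPM. Its gene differs greatly between people, so reads of the lines may map to the reference unequally. H2AFY2, a macroH2A histone variant of silent chromatin, was read in 77 H9 and 24 H1 cells, with medians of 20.0 and 0.0 CPM. In bulk H1, HLA-DQB1 was at 0.774 ± 0.631 CPM and H2AFY2 at 5.22 ± 1.76 CPM (SD, n = 48).

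Further down the H9 order, below 50 points, came LOXL3, a lysyl oxidase of the extracellular matrix, with reads in 60 H9 and 18 H1 cells. ZNF516 followed with 77 and 38 cells, NBPF3, of a gene family with near-identical copies, with 78 and 45, and SIX6, a homeobox gene of the developing eye, with 77 and 46. The ester hydrolase gene IAH1 had 59 and 33 cells, ZNF518B 79 and 55, and TMEM178, IQCA1 and RWDD2B between 50 and 62 H9 cells against 24 to 31 H1 cells. IAH1 and RWDD2B differed mainly by share, since their levels among cells with reads differed by -0.40 and -0.22 (log2).

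Counted per cell, the 15 genes set the lines apart with some overlap. An H1 cell held reads of 5 to 12 of the 12 H1 genes (median 10) and an H9 cell of 0 to 8 (median 3). Of the 3 H9 genes, an H9 cell held 1 to 3 (median 3) and an H1 cell 0 to 2 (median 0). Summed over the 12 genes, the level was 30 to 1047 CPM per H1 cell (median 506.5) and 0 to 198 CPM per H9 cell (median 35), so the sums overlapped in part. These genes were chosen for this difference, so the counts are a description.

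At 96 libraries per lane, where each cell was thinned to 250000 reads, all 15 genes kept their direction, and 9 of the 12 H1 genes and the 3 H9 genes stayed past 50 points. PEG3 was then read in 84 H1 and 0 H9 cells, CSRP1 in 48 and 0, CAT in 51 and 1, and NLRP2 in 3 and 83. These are the same cDNA molecules read again, not other cells. Where at least 10 reads were asked of a cell, 8 of the 15 stayed past 50 points.

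The start regions of these genes are shown so that the letters upstream of genes with unlike shares between the lines can be read side by side. RefSeq promoters on GRCh38.p14 were at hand for 13 of the 15, matched by symbol or a former symbol. The 250 bases upstream of the start of 4 genes follow, 5′ to 3′ on the strand of the gene, with each CG dinucleotide, the site of DNA methylation, in capitals. CAT lies on the plus strand at chr11:34438684-34438933, CSRP1 on the minus strand at chr1:201507124-201507373, TRDN on the minus strand at chr6:123636951-123637200 and NLRP2 on the plus strand at chr19:54966124-54966373.
CAT: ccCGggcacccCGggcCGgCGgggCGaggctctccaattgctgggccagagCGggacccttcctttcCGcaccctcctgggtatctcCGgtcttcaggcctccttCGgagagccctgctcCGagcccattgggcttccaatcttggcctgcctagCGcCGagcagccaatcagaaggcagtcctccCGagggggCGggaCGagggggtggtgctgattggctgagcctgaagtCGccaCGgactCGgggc
CSRP1: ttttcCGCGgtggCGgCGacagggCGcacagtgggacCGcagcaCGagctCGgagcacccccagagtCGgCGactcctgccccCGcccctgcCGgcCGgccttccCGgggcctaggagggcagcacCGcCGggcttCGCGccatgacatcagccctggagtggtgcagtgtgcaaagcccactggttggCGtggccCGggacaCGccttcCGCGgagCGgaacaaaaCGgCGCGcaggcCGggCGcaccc
TRDN: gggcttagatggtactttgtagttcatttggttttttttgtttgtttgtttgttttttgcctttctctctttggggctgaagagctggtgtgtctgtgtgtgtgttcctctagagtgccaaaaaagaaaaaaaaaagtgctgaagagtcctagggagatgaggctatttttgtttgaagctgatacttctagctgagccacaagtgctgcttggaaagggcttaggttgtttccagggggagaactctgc
NLRP2: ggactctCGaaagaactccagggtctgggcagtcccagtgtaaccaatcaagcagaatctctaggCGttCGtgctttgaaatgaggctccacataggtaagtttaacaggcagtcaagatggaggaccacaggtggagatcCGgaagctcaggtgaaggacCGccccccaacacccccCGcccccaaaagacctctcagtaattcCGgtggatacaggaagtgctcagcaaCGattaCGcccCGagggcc

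The number of CG dinucleotides in these 250 bases was 18 in CAT, 29 in CSRP1, 0 in TRDN and 10 in NLRP2. Over the 13 genes it ran from 0 to 41 with a median of 17, against a median of 21 over the 7025 compared genes with such a sequence. HTR7 had 41 and ZNF280D 34, at the upper end, and SCGB3A2 had 2. Of the 13 genes, 92.3% held at least 1 CG, as did 99.3% of all. The genes thus spanned CG-poor and CG-rich starts, and the count says nothing about their methylation in these cells.

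Of all compared genes, 88.1% lay within 1.5-fold between the lines and 3.05% were 2-fold apart. The nearest neighbours of the 15 genes were close to that, and genes farther out were not taken. Taking the 2 nearest compared genes on either side, 60 in all, 51 lay within 1.5-fold and the median absolute log2 ratio was 0.27. The 2 that were 2-fold apart both flanked HLA-DQB1 in the MHC region: HLA-DRB1, its class II relative, at -1.31 with reads in 34 H1 and 52 H9 cells, and TAP1, the peptide transporter, at -1.32 with 26 and 40. PSMB8, an immunoproteasome subunit of the same stretch, stood at -0.44. Beside PEG3, the genes ZNF470, ZNF835, DUXA and ZNF264 stood at -0.21, 0.79, 0.40 and 0.52, and beside NLRP2, LAIR1, FCAR, GP6 and TNNT1 at 0.55, 0.37, 0.38 and 0.14. FCAR and GP6 were read in every cell of both lines at 19.5 to 25.4 CPM but stood at 0.709 and 0.930 CPM in bulk H1.

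Turning to mean levels, 88.1% of the compared genes lay within 1.5-fold between the lines. The mean was at least 2-fold higher in H1 for 127 genes (1.5%) and in H9 for 131 genes (1.55%), around a median log2 ratio of 0.02 over all 8449. Of these, 113 and 119 were also 2-fold apart in the same direction at 96 libraries per lane, and 109 and 117 without the libraries that stood apart. Counted anew without those libraries, 123 genes were 2-fold higher in H1 and 148 in H9. Bulk H1 lay nearer to the H1 cells than to the H9 cells for 59.1% of the 127 and 71% of the 131, against 50.2% of all compared genes in the bulk table, where the bulk levels come from another chemistry.

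The parts of these differences were not the same in each direction. For the 124 H1 genes with reads in enough cells to split, a median of 33.4% of the log2 ratio came from the share of cells (interquartile range over genes 14.1 to 53.9), and 40 owed more to the share than to the level. For the 130 H9 genes the median was 18.6% (9.02 to 33.3), and 14 owed more to the share. Genes at least 2-fold apart in the level among cells with reads numbered 55 in H1 (0.651%) and 82 in H9 (0.971%). Without the libraries that stood apart they numbered 55 in H1 and 118 in H9. The difference in the parts stands beside the larger number of genes read per H1 cell. Of the 2852 genes not read in at least 90% of cells of both lines, 2095 had the larger share in H1 and 757 in H9, with a median difference of 4.79 points, which was 7.36 points without the libraries that stood apart. Its part in the split was not tested.

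**Figure D3:**
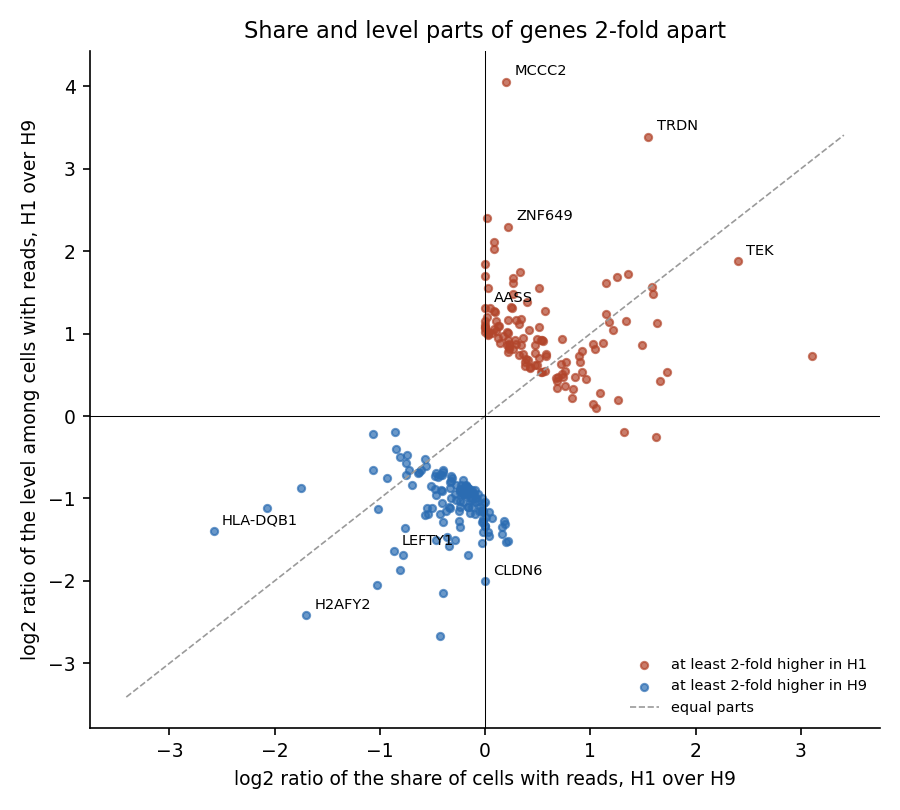
Log2 ratio of the share of cells with reads (horizontal) and of the level among those cells (vertical), H1 over H9, for 124 genes at least 2-fold higher in H1 and 130 higher in H9 in mean level. Points above the dashed line on the right, and below it on the left, owe more to the level, and most genes of either direction lie there.

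Of the 127 and 131 genes 2-fold apart in mean, 24 and 12 were read in at least 90% of cells of both lines. Even so, 84 of the 124 H1 genes and 116 of the 130 H9 genes owed more to the level than to the share. MCCC2, of leucine breakdown, was an extreme case: it had reads in 92 H1 and 79 H9 cells, with medians of 67.5 and 3.0 CPM, so 4.06 of its log2 ratio of 4.27 was level. ZNF506 was read in all cells of both lines with medians of 32 and 11 CPM, and its whole log2 ratio of 1.70 was level. VLDLR, a lipoprotein receptor, lay at the other end, with reads in 58 H1 and 23 H9 cells and a slightly lower level among H1 cells with reads (log2 ratio -0.19). ZNF248 was alike, with 56 and 18 cells.

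Among genes read in at least 90% of the cells of both lines, ZNF595 and THUMPD3 had the highest H1 levels relative to H9. THUMPD3, a tRNA methyltransferase, ran from 3 to 324 CPM with a median of 61 in H1 and from 0 to 136 CPM with a median of 6 in H9. ZNF595 had medians of 41 and 5 CPM and a log2 ratio among cells with reads of 2.11. PSMD5, a chaperone of proteasome assembly, had medians of 128 and 19 CPM, and the neuronal calcium sensor VSNL1 228.5 and 90 CPM. For each of these genes the H1 median was more than 2-fold the H9 median, while the ranges of the lines overlapped. Bulk H1 lay near the mean of the H1 cells for THUMPD3 (84.9 ± 6.42 CPM, SD, n = 48, against 82.96 in H1 and 19.2 in H9). It lay nearer to the mean of the H9 cells for ZNF595 (11.8 ± 2.66 CPM against 11.2), PSMD5 (60.01 ± 7.13 CPM against 48.3) and VSNL1 (92.2 ± 10.7 CPM against 96.04).

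Of the other H1 genes, AASS, which opens lysine breakdown, ran from 51 to 7267 CPM with a median of 1369.0 in H1 and from 15 to 2312 CPM with a median of 422.0 in H9. PSPH, the last step of serine synthesis, had medians of 147 and 57 CPM, and IDO1, which breaks down tryptophan, 111 and 33 CPM. TYW3, of tRNA modification, ANXA2, a membrane-binding annexin, and EXOSC5, of the RNA exosome, completed the group with log2 ratios among cells with reads of 1.2, 1.09 and 1.08. In mean level EXOSC5 stood at 1.08, and at 0.58 at 96 libraries per lane.

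On the H9 side CLDN6 came first. This tight-junction gene was read in every cell, from 13 to 260 CPM with a median of 107.0 in H9 and from 2 to 115 CPM with a median of 24 in H1, a 4-fold difference of means. Bulk H1 held CLDN6 at 653 ± 116 CPM (SD, n = 48), above both sets of cells. PHLDA1, a gene of growth factor response, had medians of 66 CPM in H9 and 19.5 in H1, the histone deubiquitinase USP3 94 and 27, and FAM117B 353.0 and 135.0. MYO6, a myosin that moves towards the minus end of actin, followed with 57 and 20 CPM. KCTD10, IGDCC4, the glutathione transferase GSTO1, THOC3 of mRNA export and CCDC152 lay between -1.15 and -0.94 among cells with reads.

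Lists of genes by pathway placed these differences side by side. The lists were chosen with earlier results of these data known, and their counts are descriptions, set against the 1.5% of all genes past 2-fold in H1 and the 1.55% in H9. For counts by direction alone, 52.8% of all compared genes had the higher mean in H1 and 47.2% in H9. Zinc finger genes leaned to H1: of 37 compared, 8 passed 2-fold there and 0 in H9, with a median log2 ratio of 0.24. ZNF649 stood at 169 and 29.4 CPM (2.52), ZNF667 at 42.7 and 8 (2.42) and ZNF582 at 11.98 and 2.47 (2.28). Reads of zinc finger genes can be shared between near-identical family members.

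Counted by symbol rather than by that list, the lean in mean level was larger on chromosome 19 than on the other autosomes. Chromosome 19 carries most clusters of KRAB zinc finger genes, repressors of transposable elements. Of 173 compared genes there with a ZNF or ZFP symbol, 14 (8.09%) were 2-fold higher in H1 and 1 in H9, with a median of 0.32. Such genes on other autosomes gave 7 and 5 of 182, with a median of 0.09. The other 365 genes of chromosome 19 gave 4 and 5, with a median of -0.01, close to that of all genes. ZFP28 at 2.35, ZNF229 at 2.08 and ZNF461 at 1.75 were further members of the 14. By share chromosome 19 did not stand apart from the other autosomes in this way: 12 of the 173 (6.94%) and 13 of the 182 (7.14%) were at least 20 points higher in H1. Both were above the 1.89% of all compared genes and the 1.1% of the other genes of chromosome 19. Of all 8449, however, 5597 were read in at least 90% of cells of both lines and so cannot be 20 points apart. Such genes were not set aside in any of these rates.

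**Figure D4:**
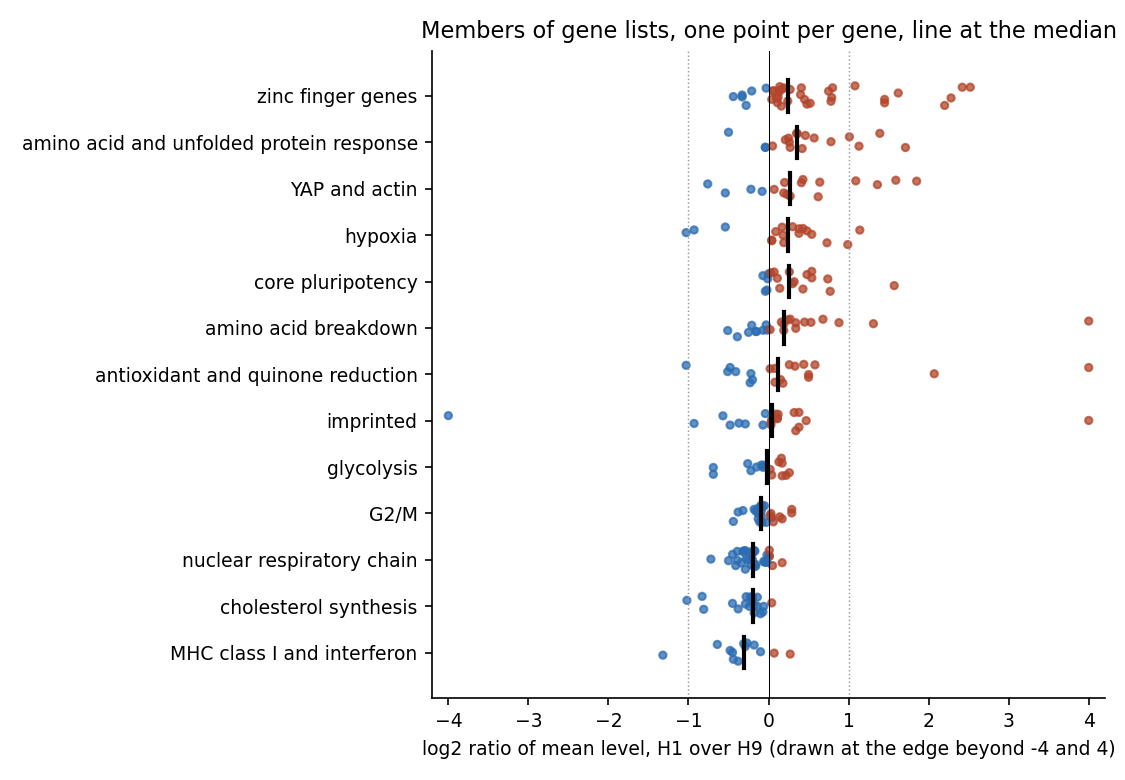
Log2 ratio of mean level, H1 over H9, of the compared members of 13 gene lists, one point per gene and a black bar at the list's median, with dotted lines at 2-fold. The lists shown were picked after their values were seen, points beyond 4 either way are drawn at the edge, zinc finger, amino acid response and YAP genes have the most members past 2-fold in H1, and cholesterol and MHC genes lie mostly on the H9 side.

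Genes of the amino acid and unfolded protein response were also higher in H1. In this list 15 of 18 had the higher mean in H1, 4 at least 2-fold and 0 in H9, with a median of 0.35. STC2, a secreted glycoprotein of that response, had reads in 69 H1 and 36 H9 cells and means of 12.2 and 3.71 CPM. SLC7A5, a transporter of large neutral amino acids, stood at 29.3 and 11.2 CPM, and CHAC1, which degrades glutathione, at 14.4 and 7.12. VLDLR, described above, was the remaining one. SLC7A11, the cystine transporter, and ASNS, asparagine synthetase, were higher by 0.78 and 0.57, short of 2-fold. In the list of amino acid breakdown 2 of 23 were 2-fold higher in H1, MCCC2 and AASS, and 0 in H9.

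Targets of YAP and genes of the actin cytoskeleton followed the same direction. Of 17 compared, 4 passed 2-fold in H1 and 0 in H9. A share at least 20 points larger in H1 was found for 5, against 1.89% of all compared genes, a rate with the limit given above. TAGLN, which binds actin, stood at 55.8 and 15.5 CPM with reads in 84 and 56 cells. CTGF, a matricellular protein, had 79 and 55 cells, CYR61, its relative, 73 and 34, and the kinase LATS2, which restrains YAP, 81 and 58. For CYR61 the share made up 1.09 of the log2 ratio of 1.36. AMOTL1, an angiomotin that holds YAP, went the other way at -0.76.

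Cholesterol synthesis leaned to H9 by small steps. Of 19 compared genes, 18 had the higher mean in H9 and 1 was 2-fold apart, SREBF2, the transcription factor that drives the pathway, at 7.82 and 15.8 CPM. INSIG1, which holds back that factor when sterol is high, stood at 37.4 and 66.5 CPM (-0.83). The list's median was -0.20. The list of MHC class I and interferon genes had 11 of 13 higher in H9 with a median of -0.31. TAP1 aside, they included IFITM3 at 233 and 363 CPM (-0.64) and B2M, the light chain of MHC class I, at 101.4 and 142 CPM (-0.48).

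Subunits of the respiratory chain encoded in the nucleus had 27 of 32 higher in H9 and 0 at 2-fold, with a median of -0.20, which was -0.12 without the libraries that stood apart. COX5A of complex IV lay lowest at -0.72. The hypoxia list had 15 of 18 higher in H1 with a median of 0.24. ADM, adrenomedullin, stood at 161 and 72.96 CPM (1.14), EGLN3, an oxygen-sensing hydroxylase, at 0.99, and BNIP3, of mitophagy, at 26.99 and 55.2 CPM (-1.03), or -0.89 without those libraries. Glycolysis genes divided 8 and 8 around a median of -0.02, and G1/S genes 10 and 10 around 0.00. Genes of G2/M had 17 of 25 higher in H9 with a median of -0.09. None of the genes of these cell cycle lists was 2-fold apart.

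Among signalling and junction genes, single members passed 2-fold. LEFTY1, an inhibitor of Nodal, was read in 47 H9 and 26 H1 cells (12.3 and 2.15 CPM, -2.51), and FST, which binds activin, in 60 H1 and 35 H9 cells (1.13, or 0.76 without the libraries that stood apart). WNT5A, a ligand of non-canonical WNT signalling, stood at -1.27. CLDN4, another tight-junction gene, was opposite to CLDN6, with reads in 69 H1 and 41 H9 cells (1.22). GAL, the neuropeptide galanin, stood at 1.57 and NR5A2, an orphan nuclear receptor, at 1.52. CRYZ, a quinone reductase, had reads in 91 and 63 cells (2.07).

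Imprinted genes other than PEG3 and NLRP2 differed by less than 2-fold. Of 21 compared, 13 had the higher mean in H1 and 8 in H9, with a median log2 ratio of 0.04, and those were the 2 past 2-fold. ZDBF2 and SGCE, both paternally expressed, stood at -0.93 and -0.57, opposite to PEG3. INPP5F stood at 0.47.

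The last quantity was the spread of a gene from cell to cell. It was taken as the squared coefficient of variation (CV2) over all cells of a line, on a log2 scale, less the median for the genes closest to it in mean, and needed 10 CPM in both lines. Before that adjustment, 66.1% of 7669 genes had the larger CV2 in H9, with medians of 0.844 in H9 and 0.737 in H1, and 77.6% did without the libraries that stood apart (0.820 and 0.639). After it, the spread was at least 1 log2 unit larger in H1 for 340 genes (4.43%) and in H9 for 3.44% of genes. The adjusted spreads of the lines correlated across genes at 0.787 (Pearson), so a gene variable in H1 was mostly variable in H9, and at 0.851 without the libraries that stood apart. Genes are not independent replicates.

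Much of this count rested on few cells. Without the libraries that stood apart, 172 (2.24%) and 154 (2.0%) genes passed, of which 98 and 97 were among those called with all cells. Without the highest cell of each gene in each line, 93 and 119 passed. The genes with the largest differences at 50 CPM or more and within 1.5-fold in level were the plainest cases. In H1 they were DEGS1, a ceramide enzyme, ZNF138, ZNF652, GGNBP2, the sialyltransferase ST6GAL1, the splicing kinase CLK1, MTRNR2L8, a copy of mitochondrial sequence, and SOX11, a neural transcription factor. DEGS1 ran from a median of 80 to a highest cell of 1075 CPM in H1, against 236 CPM as the highest in H9. Its difference of 2.07 fell to 0.40 without those libraries, and of the 8 genes SOX11 alone stayed past 1, at 1.09.

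In H9 the 8 genes were RPS29, SLIRP, RPS20, RPLP2, FAU, RPS24, RPL35 and RPL34, which apart from SLIRP code for ribosomal proteins. RPS29 reached 568 CPM in H9 over a median of 129.0, and 241 CPM in H1 over a median of 148.0, a difference of -2.95. Of 77 ribosomal protein genes compared, 43 had spread at least 1 unit larger in H9, with a median difference of -1.1. Without the 7 H9 libraries numbered 88 and 91 to 96, that count was 0 and the median 0.44, and RPS29 stood at 0.54. Over all genes, 354 (4.62%) in H1 and 186 (2.43%) in H9 then passed 1 unit. Those libraries were picked by their summed level of ribosomal protein genes, so leaving them out had to lower the H9 spread of these genes, and the values are a description. What sets the libraries apart was not tested.

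**Figure D5:**
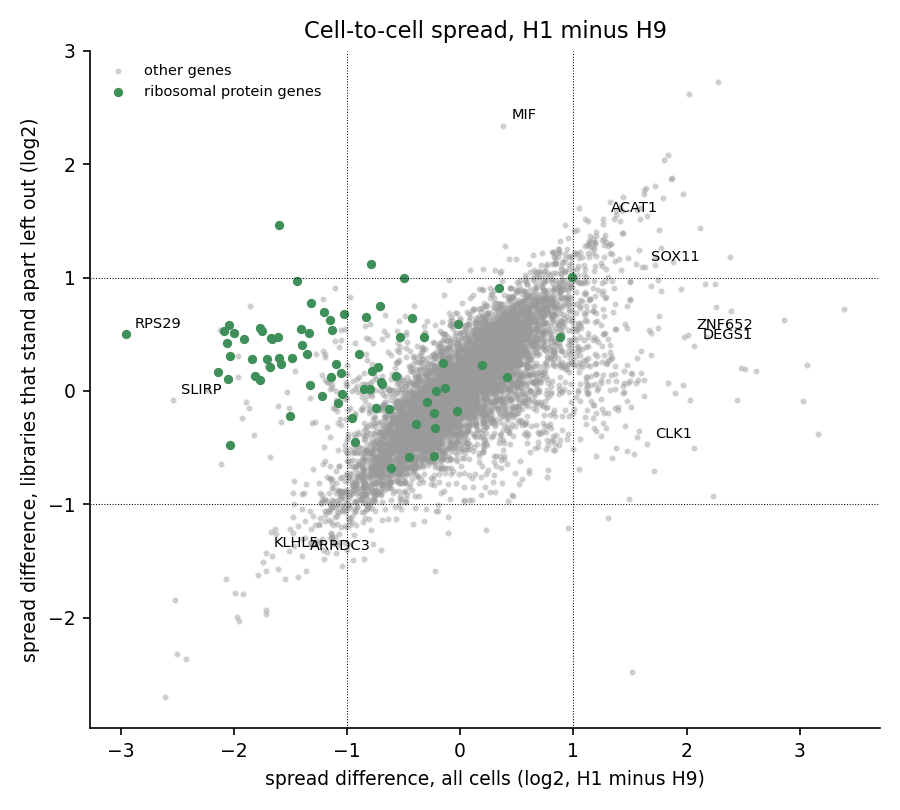
Difference in level-adjusted cell-to-cell spread, H1 minus H9 on a log2 scale, with all cells (horizontal) and without the 5 H1 and 9 H9 libraries that stood apart (vertical), one point per gene, ribosomal protein genes in green. Dotted lines mark 1 log2 unit, and most ribosomal protein genes on the far left lie near or above 0 on the vertical axis.

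With those libraries left out, other genes led, chosen after the data had been seen. Their rule was looser, since the same direction was asked at 96 libraries per lane but not without the highest cell. In H1 they were MIF, a cytokine, the ketone-body enzyme ACAT1, GOLGA3, the cyclin CCND2, MDM2, which degrades p53, ARID2, PDCD11 and RABGAP1L. CCND2 reached 2392 CPM in H1 and 764 in H9 over medians of 420.5 and 324.0, a difference of 1.28 (1.1 with all cells). MDM2 gave 1.25 (1.18 with all cells). Of the 9 p53 targets compared in spread, MDM2 was the 1 past the limit in H1, against 2.24% of all genes. With all cells 2 of the 9 passed it, against 4.43% of all genes. MIF was at 2.34 without those libraries but 0.38 with all cells.

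In H9 the leading genes were ARRDC3, KLHL5, LRRFIP1, the restriction factor TRIM5, the splicing factor SREK1, the importin KPNA4, HBP1, a repressor of cell cycle entry, and PROSER1. ARRDC3, an arrestin-like gene, reached 1984 CPM in H9 over a median of 90 and 489 CPM in H1 over 73.5, a difference of -1.46 (-1.40 with all cells). Its direction turned without the 10% of cells with the fewest genes, where the difference was 0.35. Without the highest cell of each gene, ARRDC3 stood at -0.17, TRIM5 at -0.32, CCND2 at 0.51 and SOX11 at 0.72, all under 1 unit. KLHL5 gave -1.43, with a highest H9 cell at 538 CPM against 241 CPM in H1, and TRIM5 gave -1.31. POU5F1 had a CV2 of 0.0700 in H1 and 0.107 in H9. The difference for POU5F1 was -0.46, and those for NANOG and SOX2 were 0.22 and -0.41, all under the limit.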

How the data were processed

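Each group of libraries had 1 table of RSEM expected counts, as the authors deposited it. Per the submitters' processing notes, CASAVA 1.8.2, Bowtie 0.12.8 and RSEM 1.2.3 were used with hg19, while the annotation and strand setting are not given in the sources used here. For single cells these covered 19097 human genes beside 92 spike-ins. All columns matched sample titles, leaving 0 unused.

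Expected counts were rounded and each cell was thinned without replacement to 1000000 human counts (250000 at 96 libraries per lane), spike-ins left out. Chromosomes came from RefSeq by symbol or a unique former symbol, and genes outside the autosomes were not used here. A ratio needed 10 CPM in a line (in both for spread), and the level among cells with reads needed 5 such cells in each. Limits were 2-fold, 50 points and 1 log2 unit. A line without reads was set to 3 counts over its cells. Bulk levels are CPM.

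Genes were named by rule: the 12 each way with the largest share difference, the 10 with the largest level ratio at 50 CPM and 90% of cells, the 8 with the largest spread difference at 50 CPM and within 1.5-fold, each in the same direction at 96 libraries per lane (for spread also without the highest cell), up to 4 members of a list, and POU5F1, NANOG and SOX2. The spread genes named with libraries left out were added later, without the demand on the highest cell. NFIB, ZNF248, ZFP28, ZNF506, ZNF229, ZNF461, HLA-DRB1 and the neighbours were named after their values were seen. The members and lists were chosen with earlier results of these data known. The method was tested on simulated data. The software was numpy 2.4.6, scipy 1.17.1, pandas 2.3.3 and matplotlib 3.10.9 in Python 3.11.15, and R 4.3.3 with edgeR 4.0.16 gave TMM factors for the 2 summed lines. Results for some genes are not reported here.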

Additional observations from a re-analysis of the deposited data

How the results depend on the processing

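No paired analysis was possible because nothing in the labels ties an H1 library to the H9 library of the same number and the results come from no test. A minimum level of 1 CPM gave 497 and 720 genes 2-fold higher in H1 and H9, 177 and 438 by the level among cells with reads, and 806 and 669 by spread. A minimum of 50 CPM gave 24 and 13, 20 and 11, and by spread, rounded for H1, 1.0e+02 and 112, with 3 and 1 genes past 50 points in share. At 96 libraries per lane 5 genes passed that limit in H9 and 46 passed 2-fold in the level among H9 cells with reads. A second random thinning left 14 of the 15 genes past 50 points. Asking at least 5 reads of a cell gave 28 and 42 for that level, and the median over cells with reads 207 and, rounded, 2.6e+02. A share limit of 20 points gave 160 and 32 genes. Spread was larger in H1 for 172 genes without the cells unusual in spike-in or mitochondrial RNA and for 176 without the 10% of cells with the fewest genes. Without all libraries that stood apart it was larger for 172 genes in H1 and 154 in H9, and without the highest cell per gene for 93 and 119. The SD of log2(CPM + 1), a narrower scale, put 0 and 0 genes 1 unit apart.

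Some named spread differences changed sign. Without all libraries that stood apart these were ZNF138 (-0.08), CLK1 (-0.47), RPS29 (0.50), RPS20 (0.17), RPLP2 (0.54), RPS24 (0.53), RPL35 (0.42) and RPL34 (0.11). Without the 7 H9 libraries they were RPS29 (0.54), RPS20 (0.33), RPLP2 (0.49), RPS24 (0.63), RPL35 (0.59) and RPL34 (0.15). Without the cells unusual in spike-in or mitochondrial RNA, CLK1 stood at -0.47. Without the 10% of cells with the fewest genes, ZNF138 stood at -0.18, CLK1 at -0.39 and ARRDC3 at 0.35. The other 82 recomputed counts stayed within 1.5 times. TMM and median-of-ratios factors both gave 148 and 163 genes in mean level, against 148 and 159 from summed counts, and no scaling moved the median of all genes beyond -0.01 to 0.03. Shares depend on the 1000000 reads per cell, and a cell without reads may still hold the RNA.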
